A study of Rattus norvegicus with 28 samples.

Results

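Ttyh1, Rlbp1, Gja1 and Lgr5, 4 genes known from glia or from stem cells, were followed in the lumbar dorsal root ganglion (DRG) of rats with an inflamed hind paw. They were chosen by name from the 32754 Ensembl genes of the RNA-seq count table, and all 4 had at least 10 counts in each library. The table holds 2 libraries, CFA replicate 1 and CFA replicate 2. Each was made from the pooled ipsilateral L4 to L6 ganglia of 1 adult male Sprague-Dawley rat, 12 weeks old, 48 h after injection of complete Freund's adjuvant (CFA) into the hind paw. The labels give both rats the same strain, sex and treatment, and RNA-seq counts of naïve rats and of rats with nerve constriction were not analysed here. The values below are therefore levels after CFA and the agreement of 2 rats, and a change caused by CFA was not tested. Levels are given as CPM, the counts of a gene for each 1000000 counts of its library, and they are shares of reads that were not divided by transcript length.

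The DRG holds the cell bodies of sensory neurons. Each cell body is wrapped by satellite glial cells, which are coupled to one another by gap junctions, and the axons are ensheathed by Schwann cells. Gja1 encodes connexin 43, the gap junction protein of astrocytes that satellite glia also carry. Ttyh1 encodes a membrane protein of the tweety family that is found in glia, neurons and neural progenitors. Rlbp1 encodes the cellular retinaldehyde-binding protein, which carries the visual chromophore in Müller glia and in the retinal pigment epithelium. Lgr5 encodes a receptor for R-spondins, secreted proteins that strengthen Wnt signalling, and it marks stem cells in the intestine and other epithelia. The ganglia were homogenised whole, so that the cells from which the reads came cannot be read from these counts, and fewer cells of a type cannot be told apart from less RNA per cell.

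The DNA just before the annotated start of a gene is where its transcription is set up, and it is shown for Ttyh1, Rlbp1 and Gja1 to place the genes in the genome beside their RNA levels. The sequences are the 250 bases before the start in RefSeq on the build GRCr8, written 5′ to 3′ on the strand of the gene. They lie at chr1:79144092-79144341 (minus strand) for Ttyh1, at chr1:142731622-142731871 (minus strand) for Rlbp1 and at chr20:36302314-36302563 (plus strand) for Gja1. Capitals mark matches to 5 short motifs searched on both strands, the GC box (GGGCGG), the CCAAT box (CCAAT), the TATA box (TATAAA), the AP-1 motif (TGANTCA) and the SOX core (ACAAAG).
Ttyh1: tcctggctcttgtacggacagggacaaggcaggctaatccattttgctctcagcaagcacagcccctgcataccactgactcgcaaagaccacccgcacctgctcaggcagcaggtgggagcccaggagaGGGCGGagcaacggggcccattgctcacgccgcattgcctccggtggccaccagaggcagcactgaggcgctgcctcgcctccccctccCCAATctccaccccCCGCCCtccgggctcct
Rlbp1: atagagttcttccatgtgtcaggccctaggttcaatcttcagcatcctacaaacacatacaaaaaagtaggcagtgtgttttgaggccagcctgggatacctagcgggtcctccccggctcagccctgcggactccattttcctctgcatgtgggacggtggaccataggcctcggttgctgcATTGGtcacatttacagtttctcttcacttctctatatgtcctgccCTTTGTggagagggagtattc
Gja1: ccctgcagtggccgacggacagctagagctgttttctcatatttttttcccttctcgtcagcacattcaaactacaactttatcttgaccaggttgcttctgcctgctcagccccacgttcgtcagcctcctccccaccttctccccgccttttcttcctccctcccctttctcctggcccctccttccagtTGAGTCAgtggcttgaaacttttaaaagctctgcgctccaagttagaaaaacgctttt

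The Ttyh1 sequence was rich in G and C, at 66.0%, which is percentile 86.2 of the 33469 RefSeq promoters (median 51.2%). It held 2 GC boxes, 1 of them on the reverse strand, and 1 CCAAT box, which do not overlap. The GC box occurred in 30.5% and the CCAAT box in 34.0% of the 33469 RefSeq promoters searched over the same length. The Rlbp1 sequence had 50.8% G and C, with 1 CCAAT box and 1 SOX core (16.3% of promoters), both on the reverse strand. The Gja1 sequence had 51.2% G and C and held 1 AP-1 motif, a match found in 6.34% of promoters. None of these 3 windows held TATAAA, which occurred in 12.9% of promoters. The matches describe letters only, and no binding or accessibility was measured at them here.

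Depth differed, with a total of 10520647 gene counts for replicate 1 and 28825688 for replicate 2, which is 2.74 times as many. Neuronal transcripts marked the tissue, with 2532 ± 8.19 CPM for the neuronal tubulin Tubb3 and 2022 ± 21.9 CPM for peripherin, Prph (SD, n = 2). Glial transcripts were also present, with 1145 ± 24.5 CPM for the glial calcium-binding protein gene S100b and 2035 ± 76.8 CPM for the myelin gene Mbp.

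Ttyh1 (ENSRNOG00000032699) took by far the most reads of the 4 genes. It had 3002 counts, or 285 CPM, in CFA replicate 1 and 7578 counts, or 263 CPM, in CFA replicate 2. The exact 95% Poisson intervals, which cover counting error only, ran from 275 to 296 CPM and from 257 to 269 CPM and did not overlap. The mean was 274 ± 15.9 CPM (SD, n = 2), which ranked Ttyh1 at 592 among the 15115 genes that reached 10 counts in each library, inside the top 3.92% by reads. Its share of the summed counts of the 4 genes was 76.4% in replicate 1 and 75.4% in replicate 2.

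Lgr5 (ENSRNOG00000004221) and Gja1 (ENSRNOG00000000805) lay close together in the upper part of the distribution. Lgr5 had 468 counts (44.5 CPM) in CFA replicate 1 and 1218 counts (42.3 CPM) in CFA replicate 2, a mean of 43.4 ± 1.58 CPM and rank 4850. Gja1 had 410 counts (39.0 CPM) and 1168 counts (40.5 CPM), a mean of 39.7 ± 1.09 CPM and rank 5208. Both levels of Lgr5 were above both levels of Gja1, but the Poisson intervals of the 2 genes overlapped in each library. In reads, Lgr5 stood at 2.02 times and Gja1 at 1.86 times the median gene, which had 21.4 CPM.

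Rlbp1 (ENSRNOG00000016897) was detected at a low level. Replicate 1 had 47 counts of it and replicate 2 had 86, which correspond to 4.47 CPM (interval 3.28 to 5.94) and 2.98 CPM (interval 2.39 to 3.68). The mean was 3.73 ± 1.05 CPM, at rank 12758. The order by reads, Ttyh1, Lgr5, Gja1 and Rlbp1, was the same in both libraries, while transcript lengths were not used and the order of molecules was not measured.

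**Figure D1:**
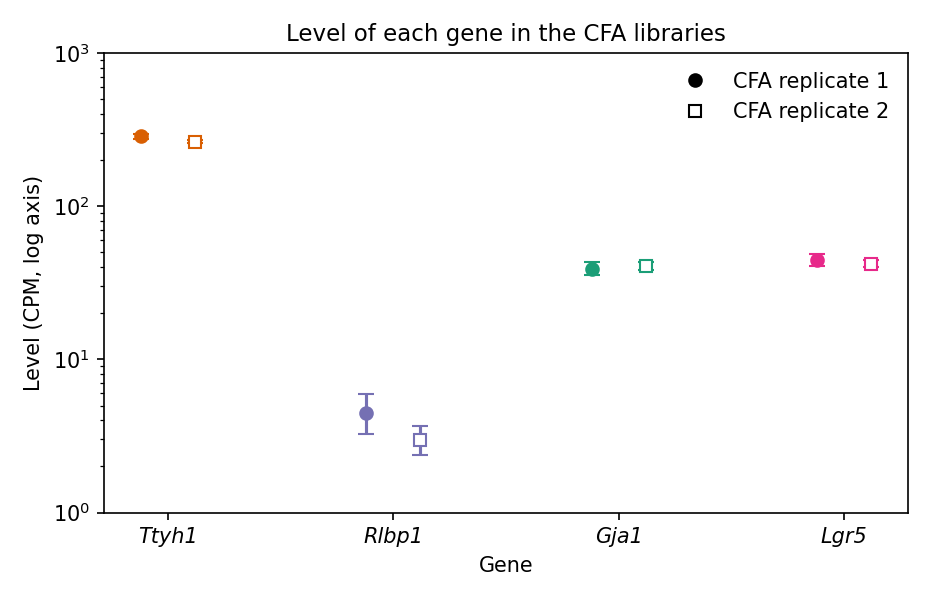
Level of Ttyh1, Rlbp1, Gja1 and Lgr5 in CFA replicate 1 (filled circles) and CFA replicate 2 (open squares), in CPM on a log axis, with exact 95% Poisson intervals as bars. Ttyh1 lies at 285 and 263 CPM, Lgr5 and Gja1 between 39.0 and 44.5 CPM, and Rlbp1 at 4.47 and 2.98 CPM.

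How precisely a rank is known differed among the genes. Ttyh1 ranked 549 in CFA replicate 1 and 642 in CFA replicate 2. Lgr5 ranked 4770 and 4944, Gja1 5289 and 5106, and Rlbp1 12366 and 13173. The interval between the 2 library values of Rlbp1 held the mean levels of 832 genes, compared with 194 for Lgr5, 159 for Gja1 and 85 for Ttyh1. Among the 1892 of these 15115 genes that could be given a symbol, Herc2, an E3 ubiquitin ligase gene, came just above Ttyh1 at 274 ± 7.73 CPM and Dync1i1, for a dynein subunit, just below at 274 ± 0.375 CPM. Lgr5 lay between Rhbdf1 (43.5 ± 1.03 CPM) and Kmt5b (43.3 ± 2.24 CPM). Gja1 lay between the cannabinoid receptor gene Cnr1 (40.1 ± 5.36 CPM) and Padi2 (39.7 ± 3.18 CPM), and Rlbp1 between Nfatc4 (3.79 ± 1.77 CPM) and Ifrd2 (3.68 ± 0.0953 CPM).

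**Figure D2:**
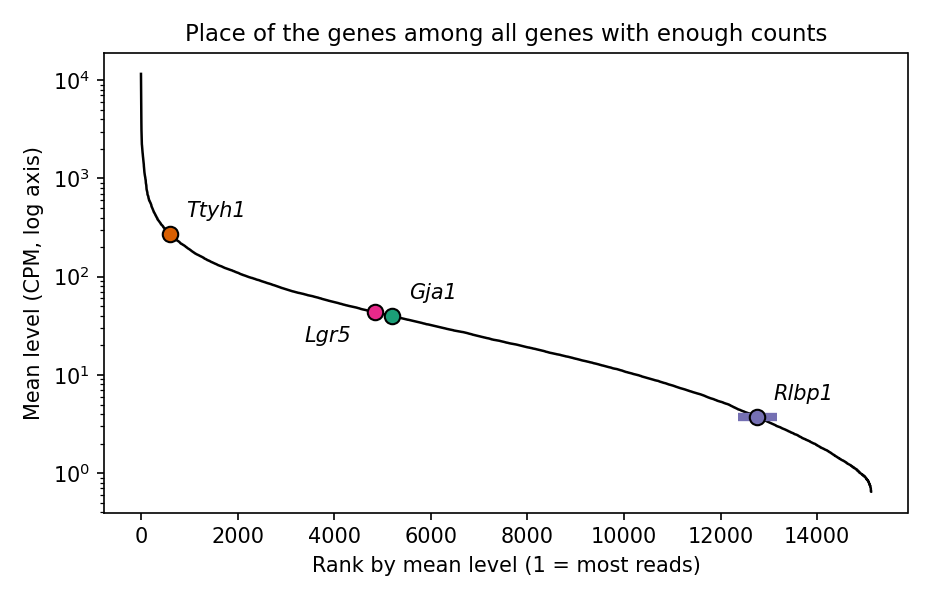
Mean level in CPM (log axis) against rank by mean level for the 15115 genes that reached 10 counts in each CFA library, with the 4 genes as coloured points and bars from the rank in one library to the rank in the other. Ttyh1 sits on the steep left part at rank 592, Lgr5 and Gja1 at ranks 4850 and 5208 and Rlbp1 on the right at rank 12758, where its bar is widest.

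The libraries were then compared gene by gene, as the log2 ratio of replicate 2 over replicate 1 with 1 CPM added to each level. The exact binomial test used for this, two-sided and with Benjamini-Hochberg adjustment over the 15115 genes, compares 2 libraries of 1 group and not conditions. It covers counting error only, not the spread between animals, and at high counts it calls small ratios. It gave an adjusted p below 0.05 for 15.3% of all genes, and 1 of the 4 genes, Ttyh1, was among them. The calls were split into 8.59% of genes lower and 6.75% higher in replicate 2, and Ttyh1 was lower. A ratio of at least 0.5 in size was found for 3.92% of all genes and for 0 of the 4. Rlbp1 lay just inside this limit, and it passed it, as 1 of the 4, at -0.51 with 0.5 CPM added (5.48% of all genes) and at -0.58 with none added (7.75% of all genes). The ratio was below zero for 3 of the 4 genes and for 52.5% of all genes.

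Ttyh1 had a log2 ratio of -0.12 (binomial test, adjusted p = 0.00216), so its level was 8.54% higher in replicate 1. Its SD of 15.9 CPM was 3.77 times the SD of 4.22 CPM that counting error alone gives at this depth. It was smaller than the 22.7 CPM obtained when the coefficient of variation that edgeR estimated for biological spread over all genes, 8.14%, was added to the counting error. Of all genes, 49.6% had a larger ratio in size than Ttyh1, but many of these had lower counts. Over the 1304 genes within a factor of 2 of its level, the ratio had a median of 0.0129 and an SD of 0.136. Of these 1304 genes, 14.3% had a lower ratio than Ttyh1.

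Gja1 and Lgr5 differed between the rats by no more than counting error. The log2 ratio was 0.05 for Gja1 and -0.07 for Lgr5, with adjusted p = 0.771 and 0.642 by the binomial test. Without the added CPM, the 95% interval of the ratio was -0.11 to 0.22 for Gja1 and -0.23 to 0.08 for Lgr5. The SD of the levels was 0.682 times the counting SD for Gja1 and 0.940 times for Lgr5.

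Rlbp1 had the largest ratio of the 4 genes in size, at -0.46. Its level was 49.7% higher in replicate 1. Scaled to the depth of replicate 1, the 86 counts of replicate 2 correspond to 31.4 counts, against the 47 found. The difference did not pass the threshold after adjustment (binomial test, adjusted p = 0.155), and the interval of the ratio without the added CPM was wide, from -1.11 to -0.04. Its SD of 1.05 CPM was 2.13 times the counting SD of 0.492 CPM, and also above the 0.578 CPM that counting error and the edgeR coefficient give together. Only 5.44% of all genes had a larger ratio in size, while the SD of the ratio was 0.29 over the 2920 genes within a factor of 2 of its level.

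**Figure D3:**
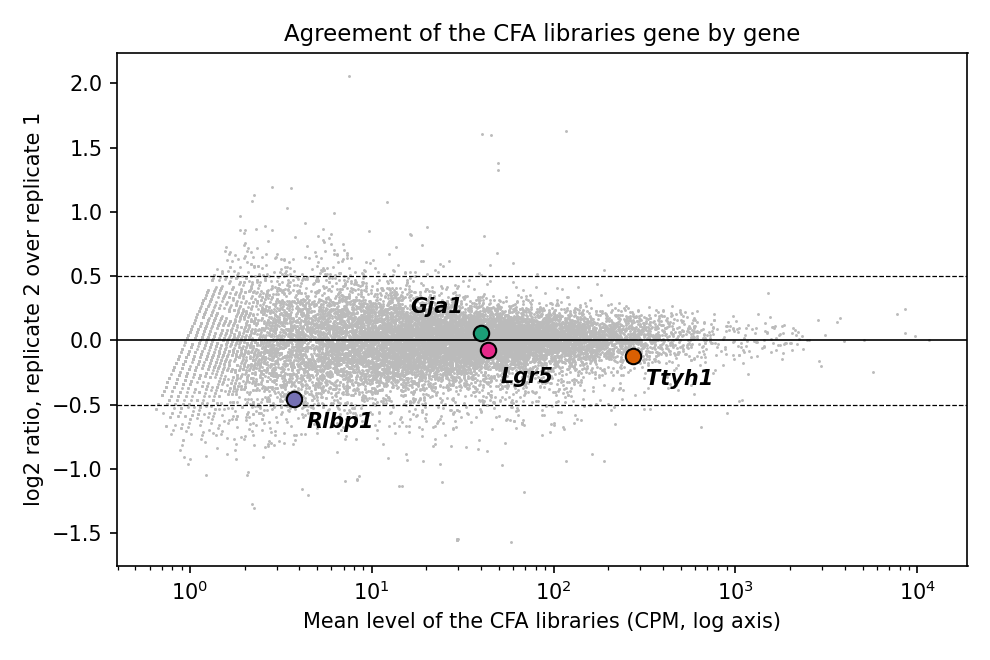
Log2 ratio of CFA replicate 2 over CFA replicate 1 (1 CPM added) against the mean level in CPM on a log axis for 15115 genes in grey, with the 4 genes as coloured points and dashed lines at 0.5 and -0.5. Ttyh1, Gja1 and Lgr5 lie between -0.12 and 0.05, inside the dense band, and Rlbp1 lies at -0.46 near its lower edge.

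The proportions of the 4 genes to one another were also compared. In reads, there were 6.41 Ttyh1 counts for each Lgr5 count in CFA replicate 1 and 6.22 in CFA replicate 2, and 0.876 and 0.959 Gja1 counts for each Lgr5 count. The proportion of Rlbp1 to Gja1 differed most, at 0.115 counts in replicate 1 and 0.0736 in replicate 2 for each Gja1 count. None of the 6 proportions differed between the libraries after adjustment over the 6 (Fisher's exact test on counts, two-sided, smallest adjusted p = 0.123).

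Other genes of the same families and pathways were taken from fixed lists. Only genes that the study itself listed as changed in these samples could be paired with a symbol, so that the lists are incomplete and their levels are no independent evidence. All genes paired and listed below passed the minimum of 10 counts. Of 20 satellite glia genes 10 could be measured, Gja1 included, between 1.95 and 1809 CPM. After the matrix protein gene Sparc (1809 ± 125 CPM) and S100b, the next were Dbi, which encodes an acyl-CoA-binding protein, at 314 ± 81.6 CPM, Gja1, and the intermediate filament gene Gfap at 17.3 ± 4.72 CPM. Gfap had 20.6 CPM in replicate 1 and 13.9 CPM in replicate 2, and Dbi 372 and 256 CPM. The median ratio of these genes was -0.12, against -0.01 over all 15115 genes, with 7 of 10 lower in replicate 2 (52.5% of all genes). Sparc, S100b, Dbi and Gfap, 4 of the 10, passed the binomial test as lower in replicate 2, against 8.59% of all genes. Dbi and Gfap did so with ratios of -0.53 each (adjusted p = 9.14e-73 and 0.000126 by the binomial test), and S100b with a ratio of only -0.04. Sparc, S100b and Dbi ranked 35, 74 and 479 by reads, so their calls rest on high counts. The share of 8.59% is over genes of every level and is no matched background for them.

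Over all genes, 8.59% were called lower and 6.75% higher in replicate 2, and the calls of the abundant genes below rest on high counts. The myelinating Schwann cell list, with 9 of 12 genes measured, had a median ratio of 0.01, and 2 of the 9, Mbp and Lgi4, were called lower in replicate 2. The 11 of 14 neuronal genes measured had a median ratio of 0.0015. Of these, Calca and P2rx3 were called lower in replicate 2, and Nefh, Nefl, Scn9a and Scn10a higher. The 4 of 11 genes of vessels and connective tissue had a median of 0.01, with Col1a1 and Col3a1 called lower. None of the 7 immune cell genes could be paired with a symbol. The part that such differences in cell markers have in the ratios of Ttyh1 and Rlbp1 was not tested.

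By family, Gja1 was compared with 3 other gap junction or pannexin genes of the 23 listed. The pannexin gene Panx1 had 19.5 ± 0.623 CPM, and the connexin genes Gjb2 and Gjb6 had 17.1 ± 2.79 CPM and 7.34 ± 1.31 CPM. Gjb2 and Gjb6 had ratios of -0.32 each, Gja1 one of 0.05, and none of the 4 passed the test, against 15.3% of all genes. The median ratio of the 4 was -0.19, against -0.01 over all genes. Ttyh1 was the 1 gene of the 3 in the tweety family that could be paired.

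For Lgr5, 11 of 35 genes of the Wnt and R-spondin pathway were measured, between 3.58 and 166 CPM. The secreted protein gene Dkk3 had the most reads, at 166 ± 1.60 CPM. The R-spondin gene Rspo2, which encodes a ligand of the Lgr5 family, had 54.4 CPM in replicate 1 and 58.6 CPM in replicate 2, and Lgr5 came next by reads. Axin2, a target of Wnt signalling, had 5.61 and 7.56 CPM. The Wnt ligand gene Wnt5a and the receptor gene Fzd2 had 12.5 ± 1.64 CPM and 13.1 ± 0.983 CPM. None of the 11 passed the test, against 15.3% of all genes, and their median ratio was 0.02. Counts were low for some, such as 41 for Fzd6 and 59 for Axin2 in replicate 1, so the lack of calls does not show agreement. Among 6 of 13 stem and progenitor genes, Lgr5 included, the neural progenitor filament gene Nes had 207 ± 24.6 CPM and was called lower in replicate 2 (binomial test, adjusted p = 7.42e-10). The others were not called, among them Notch1 at 72.6 ± 2.31 CPM and Prom1 at 18.6 ± 0.465 CPM. Over all genes, 8.59% were called lower in replicate 2.

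For Rlbp1, 5 of the 18 genes kept in the list of retinoid handling were measured, Rlbp1 itself included. These 5 were lower in replicate 2, against 52.5% of all genes. Their median ratio was -0.29. The retinaldehyde dehydrogenase genes Aldh1a1 and Aldh1a3 had 31.0 and 28.2 CPM in replicate 1 and 25.2 and 16.2 CPM in replicate 2 (binomial test, adjusted p = 0.0198 and 2.48e-11). Dhrs3, Clvs1 and Rlbp1 itself did not pass, so that 2 of the 5 were called lower, against 8.59% of all genes. With 2 rats of 1 group, whether the retinoid genes differ together across animals was not tested.

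**Figure D4:**
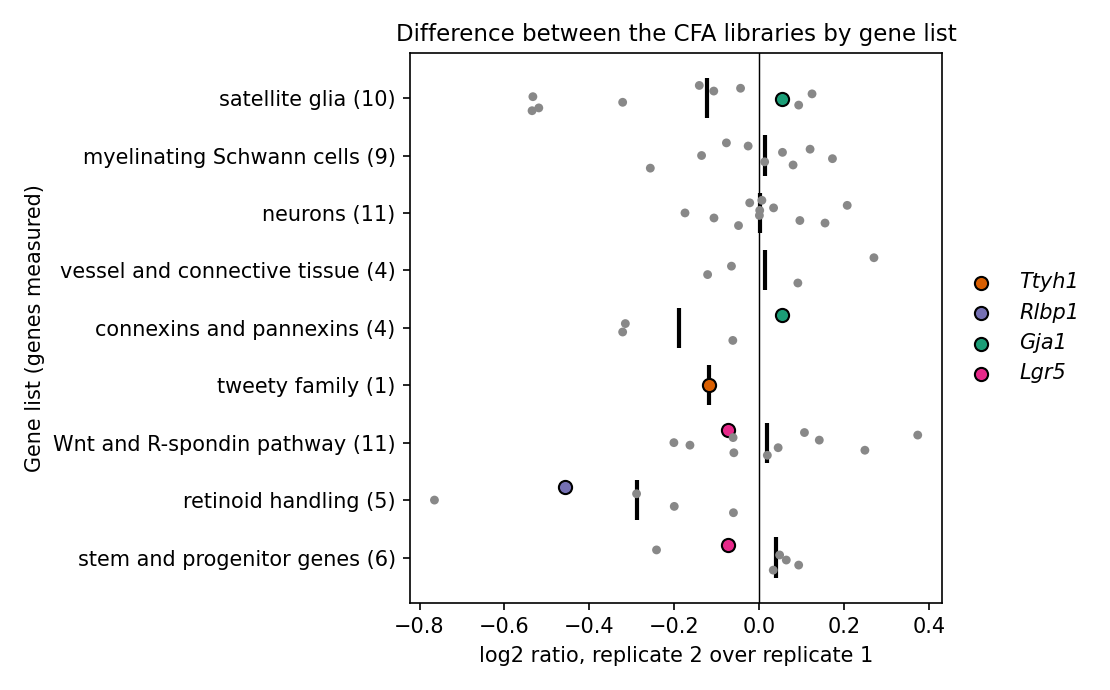
Log2 ratio of CFA replicate 2 over CFA replicate 1 for each measured gene of 9 fixed lists, with the number measured in brackets, a black bar at the median of each list and the 4 genes in colour. The medians lie at -0.12 for satellite glia, at -0.19 for connexins and pannexins and at -0.29 for the retinoid genes. They are near 0 for Schwann cells, neurons and vessels. All the retinoid genes lie left of 0.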

How the data were processed

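RNA-seq of 2 CFA libraries was analysed. Reads had been mapped to rn6 by HISAT2 and cleared of ribosomal RNA, and the authors deposited the raw featureCounts count of each Ensembl gene. The library kit was stranded, and the strand setting of the counting is not given in the sources used here. Depth was 10520647 and 28825688 counts. Near-identical copies could share reads. The deposited ATAC-seq log2 coverage was not used, since gene positions on rn6 were not at hand.

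Counts were scaled to the library total (CPM). Genes reaching 10 counts in each library entered ranks and ratios, with a pseudocount of 1 CPM. The exact binomial test and its adjustment were tested on simulated Poisson counts. These hold no spread between animals, so they cannot show how the test behaves under such spread. Python 3.11.15 with scipy 1.17.1, and R 4.3.3 with edgeR 4.0.16 (TMM, common dispersion) and DESeq2 1.42.0 (size factors) were used. Intervals are exact and cover counting error only. The labels do not say more of the replicates than their number, and the methods give 1 rat for each. No column of other samples was present.

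The 4 genes and the lists were chosen with earlier results of these data known. Symbols came from the gene lists published with the study (1949 pairs). The genes named are the 4, up to 6 genes of each list by level, and the next gene with a symbol above and below each of the 4. Axin2, Fzd6, P2rx3, Scn9a and Scn10a were named after their values were seen. A further gene of the retinoid list, 1 in number, is not reported here and was left out of its list, counts and median.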

Additional observations from a re-analysis of the deposited data

How the results depend on the processing

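Levels, ratios and ranks were recomputed with TMM, median-of-ratios and upper-quartile scaling, with the 5 highest genes left out of the total, with other pseudocounts and filters, and without single libraries. Of the 104 recomputed values, 88 were counted as unchanged. They moved by no more than the spread of the libraries, stayed within 1.5 times the count or kept their side of the binomial threshold. Some of the 88 could not have come out otherwise. The level in a single library always lies within the SD of the 2 libraries, and the binomial test does not use the pseudocount. None of the 104 changed the binomial call for Ttyh1, Rlbp1, Gja1 or Lgr5. The ratio of Rlbp1 crossed 0.5 in size with a smaller pseudocount, at -0.51 with 0.5 CPM and -0.58 with none, and without a pseudocount, an alternative for the count of genes chosen after seeing the data, 1171 genes (7.75%) crossed it, against 593. Without the 5 highest genes the level was 41.7 CPM for Gja1 and 45.5 CPM for Lgr5, since the total is smaller. With at least 100 counts in both libraries, fewer genes were tested and 205 (1.96%) had a ratio of at least 0.5, against 593 (3.92%). The median ratio of the lists near 0 shifted slightly upward. With TMM, median-of-ratios and upper-quartile scaling it was 0.0287, 0.0300 and 0.0246 for Schwann cells, 0.0171, 0.0184 and 0.0130 for neurons and 0.0286, 0.0299 and 0.0245 for vessels and connective tissue. It was 0.0350 with TMM and 0.0363 with median-of-ratios scaling for the Wnt and R-spondin pathway, and 0.0062 for neurons without the 5 highest genes. Without single libraries, the level ranged from 263 to 285 CPM for Ttyh1, 39.0 to 40.5 for Gja1, 42.3 to 44.5 for Lgr5 and 2.98 to 4.47 for Rlbp1, and the rank from 549 to 642, 5106 to 5289, 4770 to 4944 and 12366 to 13173. Depth limits Rlbp1 most, at 47 and 86 counts. The planned test of ATAC-seq regions near these genes was not run, since gene positions on rn6 were not at hand. No paired analysis was possible because the counts hold 1 group.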
